A study of Rattus norvegicus with 30 samples.

Results

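The comparison set 5 chow-fed rat hearts perfused with glucose against 5 chow-fed rat hearts perfused with mannitol. Their 10 arrays were those whose titles name a chow-fed heart perfused with glucose or with mannitol, and they were taken from the 30 arrays of the study. Each array measured the transcripts of the left ventricle of 1 heart. The study crossed 2 diets, standard chow and a high-sucrose diet given to make rats insulin resistant, with 3 states of the heart (non-perfused, mannitol and glucose), and each of the 6 groups had 5 arrays, a number that limits the precision.

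All 10 hearts came from male Sprague Dawley rats aged 16 to 18 weeks that ate rodent chow. They were excised under chloral hydrate anaesthesia, arrested in ice-cold Krebs-Henseleit buffer, and then perfused outside the body in the working mode for 60 min, with normal oxygen and at normal temperature, against a filling pressure of 15 cm H2O and an afterload of 100 cm H2O. Both buffers held 2.5 mmol/L calcium and the same 3 fuels: the ketone bodies acetoacetate (1 mmol/L) and DL-beta-hydroxybutyric acid (10 mmol/L), and the short fatty acid propionate (2 mmol/L). The glucose buffer added 25 mmol/L glucose. The mannitol buffer added 25 mmol/L mannitol, a sugar alcohol that heart cells do not use as fuel, as the control for osmolarity. The contrast therefore asks what adding glucose does to transcripts in a working heart that already has ketone bodies and propionate, and not what glucose does to an unfed heart. The labels name no insulin and no long-chain fatty acid in either buffer. The 5 chow non-perfused hearts, frozen directly after dissection, served as the level before perfusion, and the 10 perfused sucrose hearts as the same buffer contrast in another diet. The 5 arrays of a group are biological replicates by their labels.

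Glucose that enters a cardiomyocyte is phosphorylated, and its phosphates release the transcription factors MondoA and ChREBP to act on their target genes. Txnip, which encodes an arrestin-like protein that binds thioredoxin and lowers glucose uptake, is the best known of these targets. Hearts normally draw most of their energy from fatty acids and switch to glucose, lactate or ketone bodies according to supply. Other routes by which glucose is known to reach the genome are the hexosamine pathway, which supplies the sugar for O-GlcNAc marks on proteins, and the polyol pathway, and raised osmolarity acts through the factor NFAT5.

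Of 18333 genes tested, 0 differed between glucose and mannitol in chow hearts at an adjusted p under 0.05 (limma with Benjamini-Hochberg adjustment), that is 0% of the genes. The smallest adjusted p was 0.999. At an unadjusted p under 0.05 there were 715 genes (3.90%), against 917 if no gene differed, of which 293 (1.60%) were higher with glucose and 422 (2.30%) lower. Arrays of 1 slide shared part of their deviations (mean residual correlation 0.175), and with slide as a fixed block the count was 1235, with slide as a random block 1081 and with array weights 1661, all above 917, so 715 is not read as a shortfall. Txnip was 1.80-fold higher with glucose and ranked second of all genes by p (from rank 1 to rank 15 over 27 alternatives, the last with slide as a fixed block), and its 5 glucose arrays lay above its 5 mannitol arrays. Since no gene passed, "higher" and "lower" describe measured values from here on, and no gene is called changed by glucose in chow hearts.

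**Figure D1:**
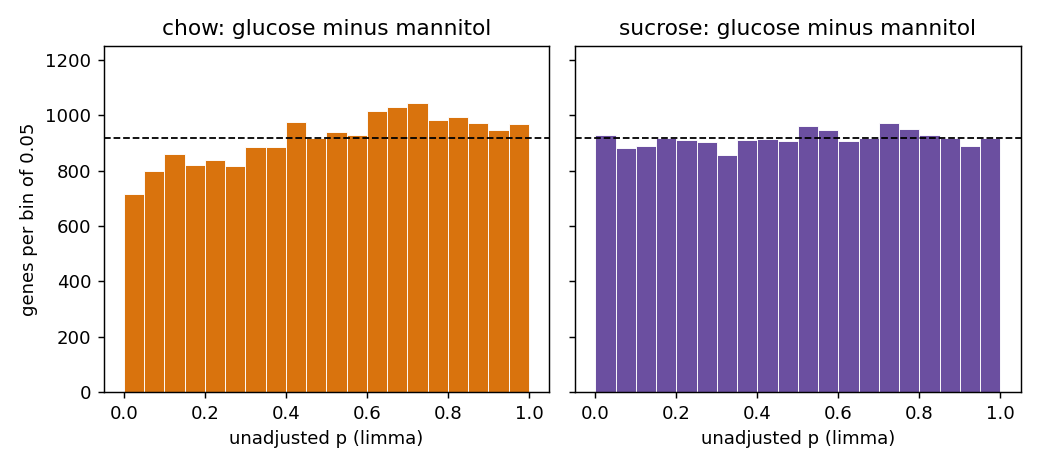
Number of tested genes in each bin of unadjusted p (limma, bins of 0.05) for glucose minus mannitol in chow hearts (left) and in sucrose hearts (right). The dashed line at 917 is the even share. The lowest chow bin held 715 genes, below that line, where slide as a fixed block gave 1235, and the lowest sucrose bin held 928.

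The arrays set limits on what could have been missed. The median SE of a difference was 0.14 on the log2 scale and the median half-width of its 95% interval 0.30. For 16524 genes (90.1%) the whole interval lay inside a 2-fold difference in either direction, and for 12652 (69.0%) inside 1.5-fold. A difference of 2-fold or more was measured for 60 genes, 34 higher and 26 lower with glucose, and 11 of these were well above background on all 10 arrays. Over all genes the median difference was -0.02, and 45.8% of genes were higher with glucose. The arrays of the buffers did not overlap for 134 genes (0.731%). A gene called alone would have needed a p of 2.73e-06, a bound that is less strict when more genes are called together. The smallest p was 9.38e-05.

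Technical facts bear on every result here. The 5 chow mannitol arrays all lay in row 1 of their slides and the 5 chow glucose arrays all in row 2, so row and buffer cannot be told apart in chow. The 5 chow non-perfused arrays also lay in row 1. Glucose minus non-perfused therefore differed in row too, and mannitol minus non-perfused did not. In sucrose hearts 4 of the 5 mannitol arrays and all 5 glucose arrays lay in row 2. The difference between diets in the effect of the buffer is therefore mixed with row. Slides 1 to 4 each held both buffers, and the difference within each slide is given below. Between 59.9% and 75.4% of probes were well above background on the mannitol arrays, and between 52.3% and 73.3% on the glucose arrays. Markers of heart muscle cells, 12 of 12 measured, summed to 5069 to 6475 on the linear scale (multiples of an array's 75th percentile) with mannitol and to 4416 to 6379 with glucose.

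Txnip was measured well above background on all 10 arrays. Values are log2 signals minus the 75th percentile of the same array, called scaled log2 signals here. The mannitol hearts read 3.23, 3.13, 3.28, 3.35 and 3.24, and the glucose hearts 4.26, 4.26, 3.75, 4.06 and 4.14. The lowest glucose heart, replicate 3, was thus above the highest mannitol heart, and the mannitol hearts lay closer together (SD 0.08) than the glucose hearts (SD 0.21). The difference was 0.85 (SE 0.19; 95% interval 0.46 to 1.24). In limma the unadjusted p was 0.000146 and the adjusted p 0.999, and an exact two-sided permutation test of this gene alone gave p = 0.00794, the smallest that 5 arrays against 5 allow. Txnip was named for its role with earlier results of these data known, so that p is no independent evidence.

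The Txnip difference had the same sign on every slide, which followed from groups that did not overlap. Each slide held 1 or 2 chow arrays of each buffer, so the slide values add no separate support. Glucose exceeded mannitol by 0.92 on slide 1, 0.92 on slide 2, 0.51 on slide 3 and 0.94 on slide 4. The smallest of these came from the slide of the lowest glucose heart.

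The non-perfused chow hearts read 2.77, 3.45, 4.01, 3.63 and 3.48 for Txnip. They were the most widely spread of the 3 chow groups (SD 0.45), and their range covered all 5 mannitol values and the lowest glucose value. Against them the mannitol hearts stood at -0.22 (limma adjusted p = 0.61) and the glucose hearts at 0.63 (limma adjusted p = 0.0349). These contrasts share the non-perfused arrays. Txnip was thus higher in glucose-perfused than in non-perfused hearts, and no change was called after perfusion with mannitol. The glucose arrays lay in row 2 of their slides and the other chow arrays in row 1. Row and buffer cannot be told apart here either. The glucose call was close to the threshold and was lost under 8 of 19 alternatives, among them the authors' deposited values (limma adjusted p = 0.25), the replicate block, and leaving out glucose replicate 1, 2, 4 or 5.

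In sucrose hearts Txnip rose with glucose by 1.26 (SE 0.19; limma adjusted p = 0.00938), the only gene called of 18333 (0.00545%). That call was lost on the authors' deposited values (difference 1.37, limma adjusted p = 0.135) and with the replicate block (1.26, limma adjusted p = 0.0654), and it held under the other 13 alternatives tried, with differences from 1.23 to 1.35. The sucrose mannitol hearts read 3.13, 2.83, 2.99, 2.50 and 2.69, and the sucrose glucose hearts 4.22, 4.18, 3.46, 4.19 and 4.40. The groups did not overlap there either. Glucose hearts of the diets had nearly the same mean, 4.10 in chow and 4.09 in sucrose, while the mannitol hearts had means of 3.25 and 2.83. The difference between the diets in the effect of the buffer was -0.41 (SE 0.27; 95% interval -0.97 to 0.14; limma adjusted p = 0.998), so a larger Txnip response in sucrose hearts was not shown. No gene passed this test of the difference between diets (0 of 18333, 0%), with 918 at an unadjusted p under 0.05.

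**Figure D2:**
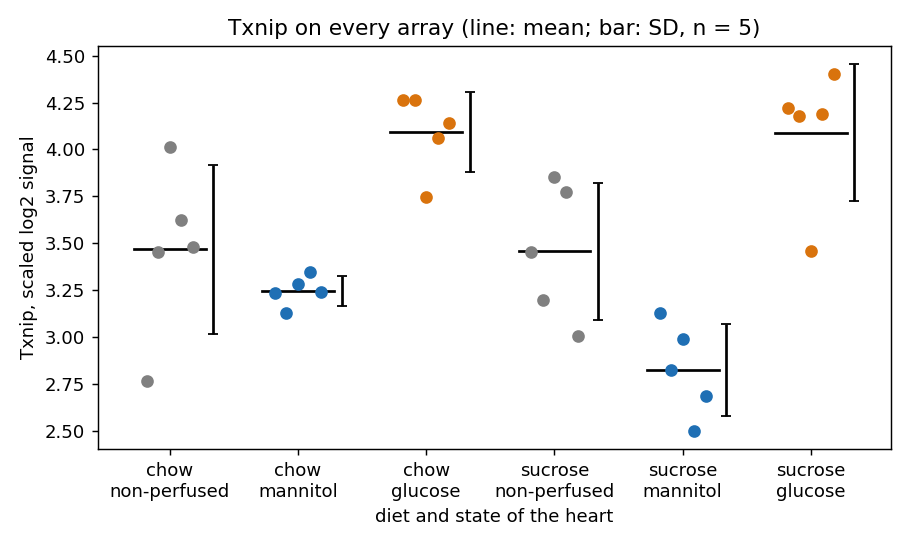
Scaled log2 signal of Txnip on each of the 30 arrays by diet and state of the heart (grey: non-perfused, blue: mannitol, orange: glucose; lines are means and bars SDs of 5 arrays). The chow glucose arrays lie between 3.75 and 4.26, above the chow mannitol arrays at 3.13 to 3.35.

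The other measured genes of the glucose-responsive pathway did not move together. A gene counts as measured here where a probe could be named as it and passed the filter on background, and 7029 of the tested genes had no symbol. Of 26 genes listed as MondoA and ChREBP regulators or targets 21 were measured, 0 were called, 11 were higher with glucose, and their median difference was 0.06 against -0.02 for all genes. On the authors' deposited values the median of all genes was -0.15 and that of the list -0.08, and without mannitol replicate 5 or glucose replicate 4 the list lay just below all genes. Klf10, a zinc-finger repressor induced by glucose and by TGF-beta, read 2.14, 2.57, 2.01, 2.36 and 2.09 with mannitol and 2.81, 2.67, 2.64, 2.43 and 2.88 with glucose. Only glucose replicate 4 fell within the mannitol range. Its difference was 0.45 (SE 0.18, unadjusted p = 0.0211), and the sucrose hearts showed 0.42 (unadjusted p = 0.0327). Nr0b2, a nuclear receptor that represses other receptors, was the third by p, at -0.23 in chow and 0.15 in sucrose. No probe could be named as Arrdc4, the arrestin gene most like Txnip, so no value is given for it.

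Genes that bring glucose into the cell and break it down showed small differences. In the glycolysis list 30 of 30 genes were measured, 0 were called, and the median difference was 0.01. Slc2a4, the insulin-regulated glucose transporter, stood at -0.04 (95% interval -0.20 to 0.12), and Slc2a1, the basal transporter, at -0.06 (-0.41 to 0.28). Hk2, the muscle hexokinase, stood at 0.09 (-0.15 to 0.33). Each of these intervals excludes a 1.5-fold difference in either direction. Slc16a3, which exports lactate, had the smallest p of the list, with a difference of 0.29 (SE 0.10, unadjusted p = 0.00835), and Pkm, the pyruvate kinase of muscle, had 0.35 (unadjusted p = 0.0336). Pfkfb3, which makes the activator of phosphofructokinase, read 0.38 with an interval of -0.34 to 1.1, and was above background on 3 of the 5 glucose arrays.

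Pathways that branch off glycolysis gave no call. In the hexosamine list 12 of 13 genes were measured and 8 were higher with glucose (median 0.03). Uap1, which forms the sugar nucleotide used for O-GlcNAc, read 0.36 (95% interval -0.00 to 0.72), while Ogt, the enzyme that places the mark, read -0.01 (-0.21 to 0.19). The glycogen list (20 of 22 measured, median 0.04), the pentose phosphate list (10 of 12, median 0.04) and the pyruvate oxidation list (14 of 15, median 0.05) all held 0 called genes. Pdk4, the kinase that shuts pyruvate dehydrogenase, read 0.16 (-0.31 to 0.64) between the buffers. It had risen with perfusion in both, by 1.63 with mannitol and 1.80 with glucose against non-perfused hearts (limma adjusted p = 1.09e-05 and 2.00e-06).

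The polyol and osmotic genes bear on the choice of mannitol as control. Akr1b1, aldose reductase, which turns glucose into sorbitol and is itself a target of NFAT5, read 0.05 (95% interval -0.06 to 0.17). Nfat5 read -0.03 (-0.17 to 0.12) and Slc5a3, the myo-inositol transporter it regulates, -0.12 (-0.53 to 0.29). Over the osmotic list 12 of 14 genes were measured, 5 were higher with glucose and the median was -0.02. Aqp1, a water channel of endothelium and muscle, was at 0.18 (unadjusted p = 0.0464) and its arrays did not overlap.

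**Figure D3:**
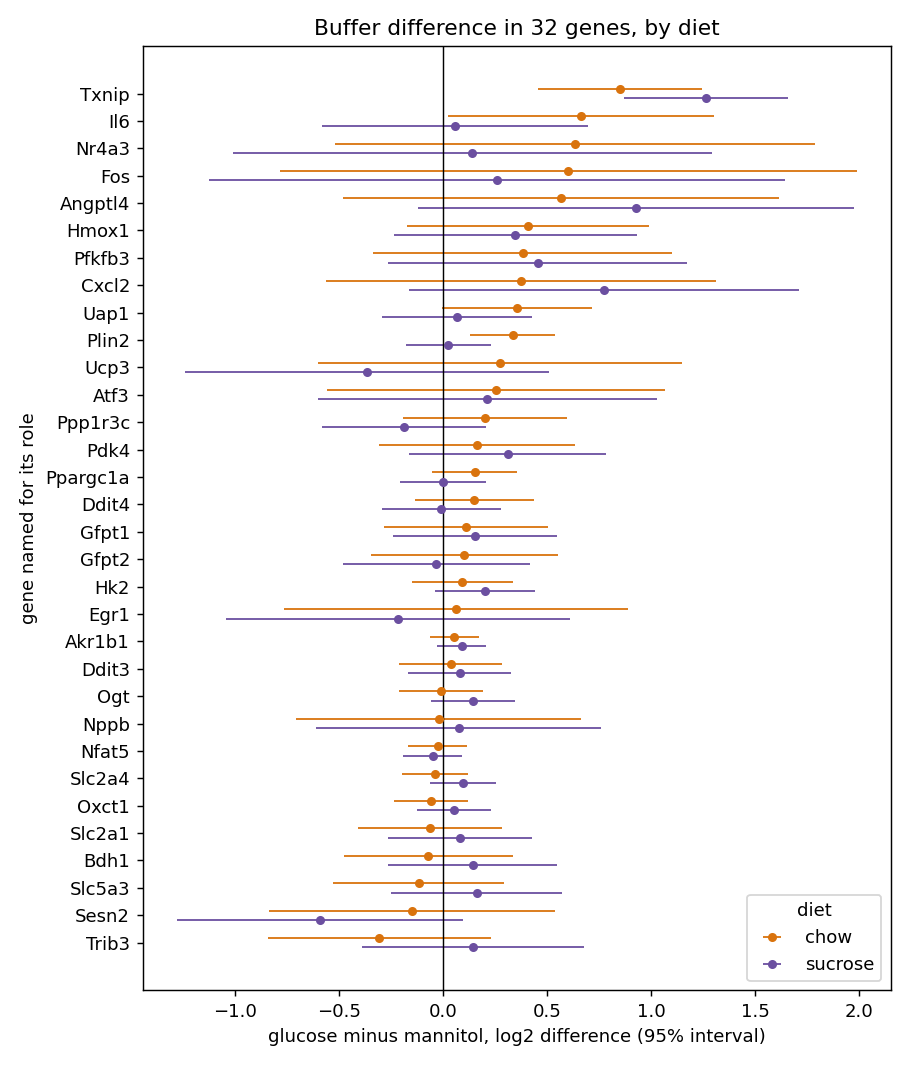
Glucose minus mannitol on the log2 scale with 95% intervals (limma, 5 arrays per group) for 32 genes named for their roles in glucose, fuel and stress pathways, in chow (orange) and sucrose (purple) hearts. In chow the intervals of Txnip, Il6 and Plin2 lie wholly above 0, and Txnip is the highest at 0.85.

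Among the genes of fat handling, the lipid droplet gene Plin2 stood apart. It encodes the protein that coats droplets of stored triglyceride, and it responds to fatty acids through the PPAR receptors. The mannitol hearts read 2.09, 2.18, 2.14, 2.06 and 1.76, and the glucose hearts 2.26, 2.23, 2.26, 2.73 and 2.43. The groups did not overlap, though glucose replicate 2 was only just above mannitol replicate 2. The difference was 0.34 (SE 0.10, unadjusted p = 0.00233), against 0.03 in sucrose hearts, and the difference between diets was not called (limma adjusted p = 0.988). Plin2 rose against non-perfused hearts with either buffer, by 0.35 with mannitol (limma adjusted p = 0.0261) and 0.68 with glucose (limma adjusted p = 1.54e-05). The mannitol call was lost under 7 of 19 alternatives, with adjusted p up to 0.875 on the authors' deposited values, and the glucose call under 0 of 19.

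G0s2, which inhibits the triglyceride lipase, read 5.24, 5.44, 4.53, 5.29 and 4.96 with mannitol and 6.06, 5.56, 5.81, 5.15 and 6.56 with glucose. All but glucose replicate 4 lay above the mannitol range. Its difference was 0.74 (SE 0.29, unadjusted p = 0.018), with 0.01 in sucrose hearts. Gpam, which starts glycerolipid synthesis, read 0.23 (unadjusted p = 0.0263), but -0.03 on the authors' deposited values. These 3 genes had the smallest p of the triglyceride list, whose median over 18 measured genes of 23 was 0.03, with 10 higher.

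The PPAR and fatty acid oxidation list (33 of 34 measured) had a median of 0.03 and 22 members higher. The medians of the PPAR, triglyceride, glycolysis, hexosamine, glycogen, pentose phosphate, pyruvate and osmotic lists lay between -0.02 and 0.05. On the authors' deposited values they were below 0 along with the median of all genes (-0.15), and each lay above that median. With normexp the glycolysis, glycogen and pyruvate lists lay below the median of all genes, and without the filter the PPAR, triglyceride, hexosamine and glycolysis lists did. Angptl4, a secreted lipase inhibitor and PPAR target, read 0.57, but the interval ran from -0.48 to 1.62 because its level varied between hearts. Ucp3, a mitochondrial carrier that follows fatty acid supply, read 0.27 (-0.60 to 1.15). The ketone genes, whose fuel was in both buffers, were close to 0: Bdh1, which oxidises hydroxybutyrate, at -0.07 and Oxct1, which activates acetoacetate, at -0.06.

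The largest list medians were in the immediate-early and inflammatory lists, whose sums on the linear scale were higher in perfused than in non-perfused hearts. Immediate-early sums ran from 58.8 to 102 in non-perfused hearts, 271 to 501 with mannitol and 427 to 532 with glucose. Inflammatory sums ran from 12.7 to 16.1, 37.0 to 56.9 and 40.4 to 82.7. Perfused hearts also differed in cold arrest and time outside the body, and the part of perfusion itself was not tested. In the immediate-early list 39 of 39 genes were measured, 0 were called, 34 were higher with glucose, and the median was 0.18. In sucrose hearts the median of the same list was -0.01. In the list of inflammatory NF-kappaB targets 28 of 36 were measured, 0 were called, 24 were higher, and the median was 0.20, with 0.28 in sucrose hearts. The members of a list were measured on the same hearts, so such counts are not separate observations.

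By heart, the mean of the immediate-early list relative to the 10-array average ran from -0.60 to 0.26 with mannitol and from -0.05 to 0.33 with glucose, so the groups overlapped. Mannitol replicate 5 was the low value of -0.60, and the other mannitol hearts lay between -0.20 and 0.26. The inflammatory list ran from -0.41 to 0.11 with mannitol and from -0.25 to 0.51 with glucose, again with mannitol replicate 5 lowest and with glucose replicate 4 highest. Without mannitol replicate 5 the median difference of the immediate-early list was 0.12 and that of the inflammatory list 0.14, and without glucose replicate 4 they were 0.18 and 0.12. Glucose replicate 4 had the lowest share of probes well above background of the 10 hearts (52.3%). It was also the highest of the 10 in the mean log2 level, relative to the 10-array average, of the markers of lymphocytes (0.75), neutrophils (0.47) and endothelium (0.26), although its summed neutrophil markers were the lowest (18.8). The part of these in the list values was not tested.

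Fosl2, a member of the AP-1 family, had the smallest p among these genes. The mannitol hearts read -1.92, -1.68, -1.96, -1.49 and -2.55 and the glucose hearts -1.62, -1.49, -1.24, -0.61 and -1.25. One mannitol heart, replicate 4, reached into the glucose range. The difference was 0.68 (SE 0.21, unadjusted p = 0.00349).

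Nr4a2, an orphan nuclear receptor, read 3.91, 3.86, 3.32, 4.00 and 2.92 with mannitol and 4.15, 4.39, 4.46, 4.87 and 4.01 with glucose. Its groups nearly met but did not overlap, and the difference was 0.77 (unadjusted p = 0.0186). Myc was at 0.52 (unadjusted p = 0.0217), with overlapping groups.

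Fos shows how 1 heart weighs on such a list. It read 3.08, 3.12, 3.01, 3.64 and 1.96 with mannitol and 3.52, 3.54, 3.59, 3.56 and 3.62 with glucose. The glucose hearts lay close together, and the low mannitol heart was again replicate 5. The difference was 0.60 with an interval of -0.78 to 1.99, and 0.35 without that heart. Against non-perfused hearts Fos rose by 6.05 with mannitol and by 6.65 with glucose (limma adjusted p = 2.74e-07 and 4.01e-08), so the difference between buffers was small beside the rise that both shared.

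Of the inflammatory genes, the 3 of smallest p were also higher with glucose, and none was called. Ccl7, a monocyte attractant, read 0.74 (unadjusted p = 0.0224), Il6 0.66 (unadjusted p = 0.0431) and Socs3, the brake on cytokine signalling, 0.52 (unadjusted p = 0.042). All 3 had risen with perfusion in both buffers; Il6 for example by 1.94 with mannitol and 2.60 with glucose (limma adjusted p = 7.19e-05 and 6.90e-07), which were 0.67 and 1.05 with normexp and still called (limma adjusted p = 0.00461 and 9.43e-06). Among all genes, 1556 (8.49%) were called between mannitol-perfused and non-perfused hearts and 1742 (9.50%) between glucose-perfused and non-perfused hearts. The glucose-perfused and non-perfused arrays also differed in slide row.

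Stress pathways gave differences of the same small size. Of the antioxidant genes driven by NRF2, 28 of 32 were measured and 23 were higher with glucose (median 0.06). Srxn1, which repairs oxidised peroxiredoxins, read 0.65 (unadjusted p = 0.0106), and Hmox1, haem oxygenase, 0.41 (95% interval -0.18 to 0.99). The integrated stress list had a median of 0.03 over 27 genes, 0.04 above the median of all genes, and 0.05 above it on the authors' deposited values. Its Cebpb, a transcription factor of inflammation and stress, read 0.43 (unadjusted p = 0.00524), whereas Ddit3, the CHOP gene of that response, read 0.04 (-0.21 to 0.28), and Trib3 read -0.31. In the list of the unfolded protein response Canx, a chaperone of the endoplasmic reticulum, read 0.48 (unadjusted p = 0.0114). Canx owed much of that to glucose replicate 4, at -0.54 where the other glucose hearts lay between -1.94 and -1.54, and the difference without that heart was 0.25. Mannitol replicate 4 was low at -2.48, where the other mannitol hearts lay between -1.90 and -1.73. Without that mannitol heart alone the difference was 0.35.

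Lists of the working muscle lay on the other side of 0. Of 37 measured nuclear genes of oxidative phosphorylation (39 listed) 5 were higher with glucose, and the median was -0.05, against 0.09 in sucrose hearts. Of 18 measured genes of hypertrophy and natriuretic peptides 3 were higher, with a median of -0.06. Of 25 genes of calcium handling and excitation 9 were higher, with a median of -0.04. Clock genes had a median of -0.10 over 15. None of the members of these lists was called, and each of these 4 medians was within 0.1 of the median of all genes. On the authors' deposited values the oxidative phosphorylation, hypertrophy and calcium lists lay above that median, by 0.12, 0.08 and 0.01, so their place below all genes depends on the scaling.

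The lists for heat shock, apoptosis and p53, AMPK and mTOR, hypoxia, insulin and FOXO, polyols and sterol synthesis held 0 called genes, with medians between -0.02 and 0.04.

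**Figure D4:**
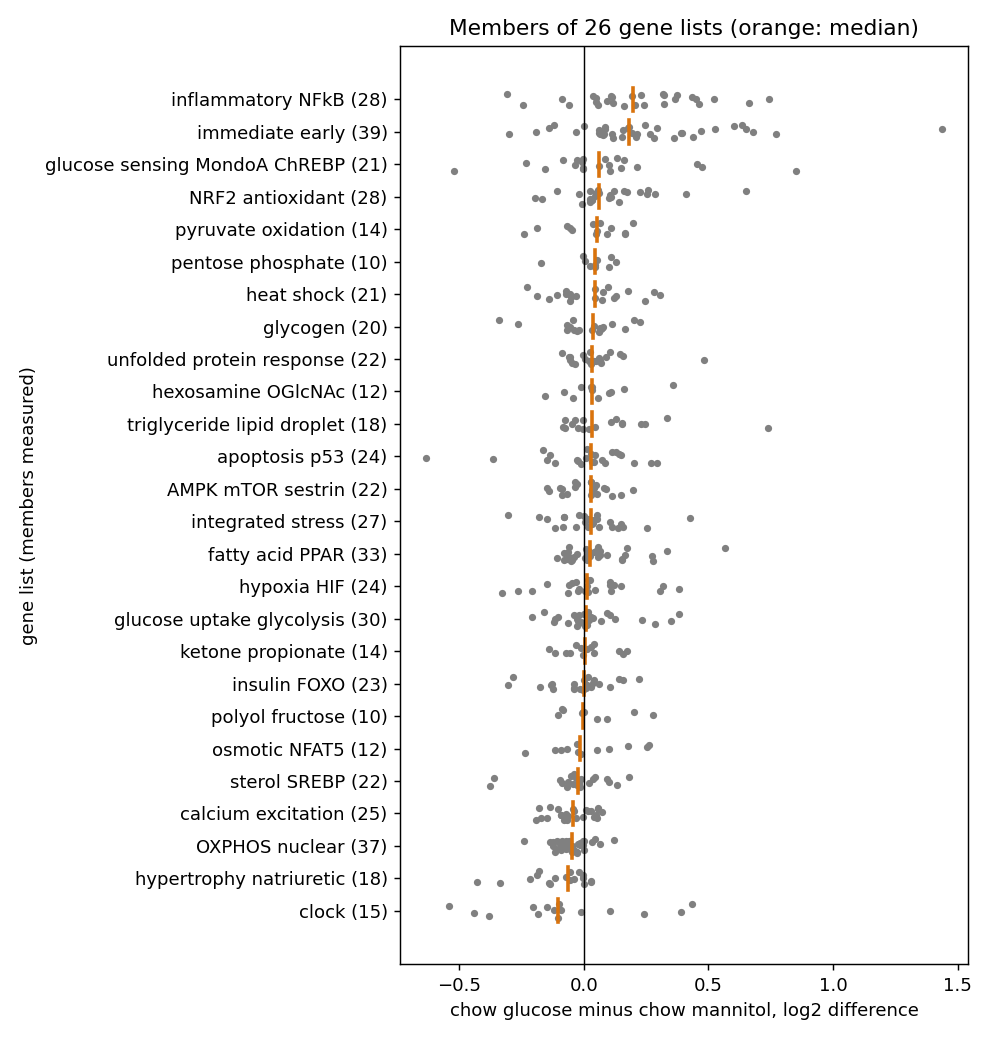
Glucose minus mannitol in chow hearts, on the log2 scale, for every measured member (grey points) of 26 gene lists, with the median of each list in orange. The medians run from -0.10 for clock genes to 0.20 for inflammatory genes, and single members spread far wider than the medians.

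The genes of smallest p that were higher with glucose were S1pr1, Txnip, Prpf38a, Litaf, Msto1, Srfbp1, Wbp1l, Hspa2, Dnaaf10 and Trpv4. Their differences ran from 0.25 to 0.85. They were picked by p in this same contrast, so their separation is a description and supports nothing. All 10 were higher with glucose on each of the 4 slides, where 13.9% of all tested genes had 1 sign on all 4, and for 7 the arrays did not overlap (0.731% of all genes). In sucrose hearts 7 of the 10 had the same sign as in chow (49.0% of all genes), and Txnip alone of them had an unadjusted p under 0.05 there.

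S1pr1, the sphingosine 1-phosphate receptor of endothelium and heart muscle, had the smallest p of all genes. It read 2.06, 2.28, 2.22, 2.07 and 2.39 with mannitol and 2.51, 2.62, 2.55, 2.83 and 2.60 with glucose. Every glucose heart was above every mannitol heart. The difference was 0.42 (SE 0.09, unadjusted p = 9.38e-05), and 0.03 in sucrose hearts. Against non-perfused hearts S1pr1 rose by 0.47 with mannitol and by 0.89 with glucose (limma adjusted p = 0.000817 and 4.95e-08).

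Litaf, which encodes a membrane protein of late endosomes, read 1.61, 2.15, 1.88, 2.12 and 1.80 with mannitol and 2.25, 2.17, 2.20, 2.58 and 2.42 with glucose. Glucose replicate 2 was only just above mannitol replicate 2, so the separation was narrow. Its difference was 0.41 in chow and -0.00 in sucrose. Like S1pr1 it rose with perfusion in both buffers, by 0.62 with mannitol and 1.03 with glucose (limma adjusted p = 0.000195 and 6.07e-08). On the authors' deposited values the mannitol rise was not called (limma adjusted p = 0.0743).

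Trpv4, a calcium channel opened by stretch and by swelling, read -1.85, -1.66, -1.52, -1.71 and -1.71 with mannitol and -1.38, -0.61, -1.35, -1.40 and -1.40 with glucose. Glucose replicate 2 was far above the other 4, which lay between -1.40 and -1.35. The difference was 0.46 (SE 0.13), against 0.03 in sucrose hearts, and 0.31 without that heart. Hspa2, a heat shock protein of the HSP70 family, read 0.57, and Dnaaf10, an assembly factor of cilia motors, 0.48, and for both the arrays overlapped. Msto1, which takes part in mitochondrial fusion, read 0.36, and Prpf38a, a splicing factor, 0.29.

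The genes of smallest p that were lower with glucose were Ntn4, Pinx1, Giot1, Trit1, Adat2, Defb43, Cd1d1, Zfp112, Akap10 and Myo7a. Their differences ran from -1.14 to -0.23, 8 of the 10 were lower on all 4 slides, and the arrays did not overlap for 2. In sucrose hearts 2 of the 10 had the same sign. The shares over all genes are those given above. Defb43 and Myo7a were faint: they were well above background on 3 and 2 of the 5 glucose arrays.

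Ntn4, a netrin of basement membranes, read -0.66, -1.18, -1.41, -1.49 and -1.86 with mannitol and -1.86, -2.35, -2.28, -1.87 and -2.11 with glucose. The groups met at -1.86. Its difference was -0.77 (SE 0.21, unadjusted p = 0.00106) and 0.09 in sucrose hearts. With the mean of all probes of the gene in place of the brightest, the difference was -0.36.

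Pinx1, an inhibitor of telomerase, gave the tightest separation in this direction. The mannitol hearts read -0.09, -0.12, -0.15, -0.05 and -0.14 and the glucose hearts -0.42, -0.54, -0.54, -0.75 and -0.41. The mannitol hearts lay close together and all glucose hearts were lower. The difference was -0.42 (SE 0.12, unadjusted p = 0.00125). Against non-perfused hearts Pinx1 fell by 0.48 with glucose (limma adjusted p = 0.0069) and read -0.06 with mannitol. The fall was not called on the authors' deposited values (limma adjusted p = 0.186), and row and buffer cannot be told apart in that contrast.

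Cd1d1, which presents lipids to natural killer T cells, had the largest difference of the 20 genes, and it came from a minority of hearts. The mannitol hearts read 2.16, 2.10, 2.25, 1.42 and 2.04, and the glucose hearts -0.38, 1.34, -0.43, 1.82 and 1.93. Glucose replicates 1 and 3 were below 0, and the other 28 arrays of the study lay between 1.13 and 2.46. The group difference of -1.14 (SE 0.35) was -0.83 without replicate 1 and -0.82 without replicate 3.

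**Figure D5:**
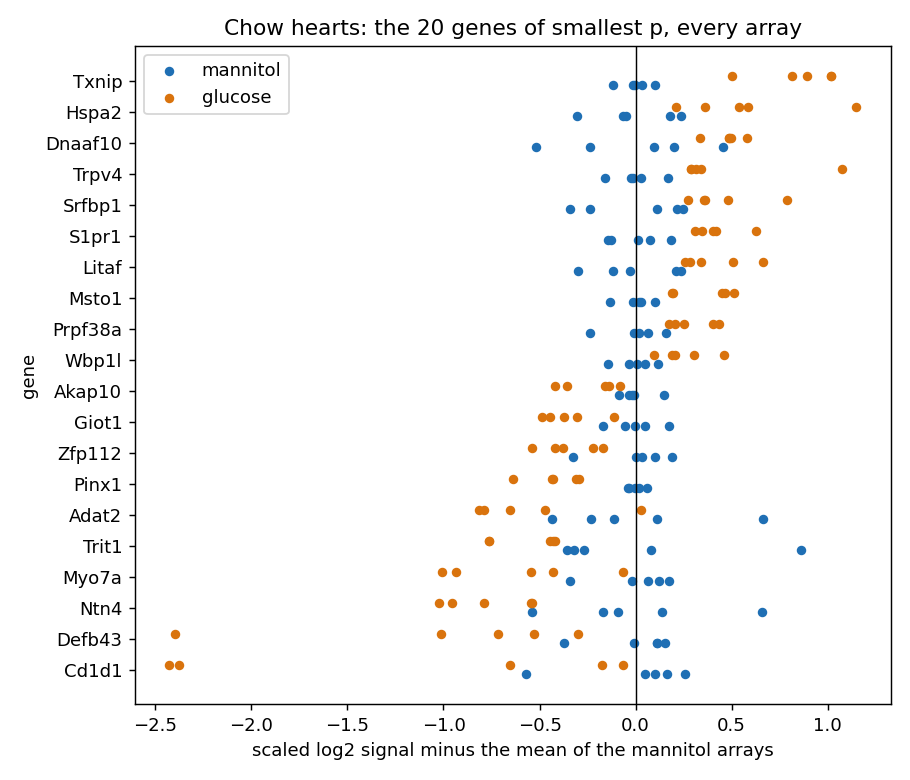
Scaled log2 signal of each chow perfused array minus the mean of the mannitol arrays, for the 20 genes of smallest p (blue: mannitol, orange: glucose). The genes were chosen by this same difference, so the split of colours is built in. Cd1d1 shows 2 glucose hearts far to the left of all the others.

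Cell content was compared through marker genes, which in bulk tissue cannot tell fewer cells of a type from less RNA per cell. Markers of endothelium (9 of 10 measured) summed to 42.5 to 46.8 with mannitol and 41.8 to 52.9 with glucose, and markers of fibroblasts (9 of 10) to 94.1 to 111 and 97.3 to 119. Markers of smooth muscle and pericytes (10 of 10) summed to 81.2 to 99.9 and 85.2 to 105, and those of macrophages (10 of 10) to 13.2 to 15.5 and 12.6 to 16.9. For these 4 cell types the ranges of the buffers overlapped, and 0 of the markers were called. Neutrophil markers summed to 19.6 to 21.0 with mannitol and 18.8 to 20.1 with glucose, with Elane, Mmp8 and Mpo not measured, and lymphocyte markers to 1.5 to 1.72 and 1.44 to 1.89, with Cd3e, Cd79a and Ms4a1 not measured. Markers of atrial and conduction cells (8 of 10) summed to 204 to 225 and 189 to 208, the lower range being that of the glucose hearts. The ranges of the platelet, adipocyte, nerve and epicardial lists also overlapped between the buffers.

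Red cell markers (8 of 10 measured) were lower with glucose in all 8, with a median difference of -0.45 and 0 called. By heart, however, their mean log2 level relative to the 10-array average had a median of -0.38 with either buffer. Mannitol replicate 3 stood at 3.06 and the other mannitol hearts at or below -0.05. They summed to 8.30 to 103 with mannitol and 7.83 to 26.3 with glucose, against 603 to 927 in non-perfused hearts. The highest sum in each buffer came from 1 heart, mannitol replicate 3 at 103 and glucose replicate 4 at 26.3, and the other mannitol hearts were at or below 12.3. Glucose replicate 4 was also the highest heart for the immediate-early and inflammatory lists, and the part of residual blood in those values was not tested.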

How the data were processed

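Per the file headers, the authors' deposited scanner files hold Agilent processed signals of 1 colour, an intensity that was background-subtracted and detrended within each array. The headers name Feature Extraction 11.0.1.1, the submitters' processing notes 10.3. The authors' deposited series table holds log2 values, and how these were scaled between arrays is not given in the sources used here.

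Outlier spots were left out, spots of a probe averaged, and the log2 signal was expressed relative to the 75th percentile of its array. Of 30367 probes 18355 (60.4%) were named through their accession. The brightest probe stood for a gene. Of 26785 genes 18333 were tested, a gene qualifying when some group had 4 or more of its 5 arrays clearly over background, and 11304 of these had a symbol. No probe was saturated.

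All 30 arrays were fitted with limma 3.58.1 in R 4.3.3 (version 1.17.8 of data.table), 1 mean per group, moderated statistics with a median of 26.3 degrees of freedom, and Benjamini-Hochberg adjustment over all genes at 0.05. Unadjusted p-values also come from limma. The pipeline was tested on simulated data with independent noise on each array, which leaves out deviations shared by arrays of 1 slide. Permutation used scipy. Replicate numbers were not treated as pairs in the main fit. Residuals of chow glucose and mannitol arrays with the same number had correlations from -0.23 to 0.16. These gave no sign of pairing, but they cannot show whether hearts were matched.

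The comparison, the gene lists and the genes named for their roles (33, of which 32 were measured; 1 more is not reported here) were chosen with earlier results of these data known. Named genes were the 10 of smallest p in each direction, those 33, and the 3 of smallest p in each list, and marker lists were summed per array.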

Additional observations from a re-analysis of the deposited data

Results flagged for a closer look

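For 120 named genes, each buffer group was examined for a heart far from the other 4, in a test whose gap must exceed 0.71 of the group's range. In 240 groups 17 hearts passed, and chance alone passes about 1 in 20 groups, so this number is no pattern by itself. Values are scaled log2 signals, with the range of the other 4 hearts.

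Among the glucose hearts the high values were Trpv4 in replicate 2 at -0.61 (others -1.40 to -1.35), Canx in replicate 4 at -0.54 (-1.94 to -1.54), the co-chaperone gene Dnaja1 in replicate 4 at 3.92 (3.00 to 3.14) and the cytokine gene Ctf1 in replicate 1 at -1.92 (-2.39 to -2.28). The low ones were Slc2a1 in replicate 1 at 0.40 (1.08 to 1.33), the liver glycogen phosphorylase gene Pygl in replicate 4 at -4.82 (-3.96 to -3.74), Pdpr, a regulator of pyruvate dehydrogenase phosphatase, in replicate 4 at -3.61 (-3.03 to -2.83), and P4ha1, a collagen prolyl hydroxylase, in replicate 3 at -2.12 (-1.36 to -1.18). Of these 8 values 4 were in glucose replicate 4.

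Among the mannitol hearts only Prps2, of nucleotide synthesis, was high, in replicate 3 at -0.75 (others -0.96 to -0.91). The low values in replicate 1 were Akr1b1 at 2.21 (2.35 to 2.38), Ddit4, an mTOR inhibitor, at 0.066 (0.52 to 0.66), and the insulin receptor gene Insr at -2.88 (-2.61 to -2.52). In replicate 4 they were Cd1d1 at 1.42 (2.04 to 2.25), Nfat5 at 0.78 (0.99 to 1.06) and Canx at -2.48 (-1.90 to -1.73). Plin2 in replicate 5 at 1.76 (2.06 to 2.18) and Pcca, of propionate use, in replicate 2 at 2.49 (2.68 to 2.76) complete the list.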

How the results depend on the processing

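Glucose against mannitol in chow hearts gave 0 called genes under each of 27 alternatives: other scalings, background correction, the authors' deposited values, filters, probe averaging, slide or replicate blocks, only the 10 arrays, variance options, array weights, and leaving out single arrays. Counts at an unadjusted p under 0.05 ran from 384 (normexp) to 1661 (array weights), with 1235 under slide as a fixed block, and the replicate block gave 0 called and 669. Txnip kept its direction throughout, from 0.81 to 0.94. By slide it read 0.51 to 0.94, where the sign followed from groups that did not overlap. Its adjusted p in limma ran from 0.0913 (array weights) to 1.00, and it was 0.17 with only the 10 arrays. Leaving out each of the 10 hearts gave 0.81 to 0.94 for Txnip and 0 called genes. The 20 genes of smallest p kept their sign throughout, which their choice on these same arrays made likely. Of 120 named genes 20 changed sign under some alternative. List medians changed sign in 19 of 26 lists, but not for the immediate-early, inflammatory, NRF2, oxidative phosphorylation, hypertrophy, calcium or clock lists. On the authors' values the median of all genes was -0.15. Relative to the median of all genes, 21 of 26 list medians changed side under some alternative, 10 of them under another scaling or background correction.

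In sucrose hearts the count of 1 became 0 with the authors' values and with the replicate block, and 2 with slide as a fixed or random block, array weights, without the array alone on its slide, and without the 4 arrays of noisy negative controls. Alternatives for perfused against non-perfused chow hearts were added after the data were seen. With mannitol 1556 became 850 with normexp and 342 on the authors' values, and with glucose 1742 became 964 and 399. The cause was not tested. The 5 arrays per group and faint signals limit detection of small differences.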
